A study of Homo sapiens with 12 samples.

Results

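The mevalonate and isoprenoid enzymes are the enzymes that carry acetyl-CoA to farnesyl diphosphate, geranylgeranyl diphosphate and squalene. Their genes were taken by name, as probes whose gene symbol in the array's annotation is exactly ACAT2, HMGCS1, MVK, PMVK, MVD, IDI1, FDPS, GGPS1 or FDFT1. Of these 9 genes, 8 have a probe, out of 18852 genes with a probe on the array. A total of 7 could be tested, out of 8092 genes tested. No probe carries the symbol FDFT1, the squalene synthase gene, in the annotation used, and it was not analysed here. The single probe for IDI1, which interconverts isopentenyl and dimethylallyl diphosphate, was above background on 0 of 12 arrays (raw intensities from 409.3 to 607.3), and it was not tested.

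Expression was measured on Illumina bead arrays in L-540, an established Hodgkin lymphoma cell line grown in suspension. The 4 groups were untreated control cells, cells given 10 µM perifosine, cells given 5 µM sorafenib and cells given both drugs at these doses, each for 24 h. Perifosine is an alkylphospholipid known as an inhibitor of AKT, and sorafenib is an inhibitor of several kinases, RAF and growth factor receptors among them. Each group had 3 arrays, lettered A, B and C, and all groups share the cell line and its culture medium. Nothing in the labels tells whether different letters were different cultures, and every p-value therefore rests on a spread between arrays that could be technical.

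The pathway builds isoprenoid units from acetyl-CoA by way of HMG-CoA and mevalonate. Farnesyl diphosphate stands at its branch point, where carbon goes to cholesterol, to dolichol and ubiquinone, or to lipid anchors on proteins, for which geranylgeranyl diphosphate also serves. Many of its genes are transcribed under SREBP2, a membrane-bound factor released when sterols in the endoplasmic reticulum are low, which acts together with the factors NF-Y and SP1.

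The deposited arrays had median intensities from 404.3 to 648.7 and detected 9291 to 11657 probes each. Combination array B had the highest median, the fewest detected probes and the lowest array weight in limma (0.291, against 0.664 to 1.69). Values without it are given beside the calls that use the combination and beside some of the other differences. Of 8 markers of Hodgkin and Reed-Sternberg cells, TNFRSF8 (CD30), FSCN1, TRAF1 and IL2RA were detected on all 12 arrays, and CCL17, CCL22 and CD40 on none. Of 9 T and NK cell markers, CD2, CD247, CD4 and NKG7 were detected on all 12 arrays and the others on none. BLK was the only one of the 5 B cell markers with a probe that was detected, on all 12 arrays, and CSF1R was the monocyte and macrophage marker detected on all of them. No fibroblast, epithelial or endothelial marker was detected on all arrays. In a bulk RNA sample, fewer cells of a kind and less RNA per cell cannot be told apart.

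Promoter windows of 250 bases before a transcription start are shown for 5 enzymes, because enzymes of this pathway are known targets of SREBP2 and its partner NF-Y. The sequences come from RefSeq (GRCh38.p14), which gave 12 windows for 7 of the 9 members; ACAT2 and FDFT1 have no entry there. They are written 5′ to 3′ on the gene's own strand, with each NF-Y box (CCAAT, or ATTGG on the other strand) in capitals. HMGCS1 (first of 2 starts) is at chr5:43313413-43313662 on the minus strand, MVK at chr12:109573544-109573793 on the plus strand and MVD at chr16:88663092-88663341 on the minus strand. FDPS is at chr1:155308655-155308865 on the plus strand, where 39 bases within the neighbouring gene PKLR were left out. PMVK, at chr1:154936720-154936969 on the minus strand, is shown as a member with no call in any comparison.
HMGCS1: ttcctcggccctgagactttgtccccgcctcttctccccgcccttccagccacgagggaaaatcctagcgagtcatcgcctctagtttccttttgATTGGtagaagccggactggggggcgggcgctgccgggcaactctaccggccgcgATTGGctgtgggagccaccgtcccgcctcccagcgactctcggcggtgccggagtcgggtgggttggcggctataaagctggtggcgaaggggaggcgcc
MVK: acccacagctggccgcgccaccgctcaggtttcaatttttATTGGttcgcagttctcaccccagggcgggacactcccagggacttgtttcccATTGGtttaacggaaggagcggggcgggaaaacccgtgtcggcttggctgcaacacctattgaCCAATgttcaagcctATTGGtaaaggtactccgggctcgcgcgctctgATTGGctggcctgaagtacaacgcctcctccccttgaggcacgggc
MVD: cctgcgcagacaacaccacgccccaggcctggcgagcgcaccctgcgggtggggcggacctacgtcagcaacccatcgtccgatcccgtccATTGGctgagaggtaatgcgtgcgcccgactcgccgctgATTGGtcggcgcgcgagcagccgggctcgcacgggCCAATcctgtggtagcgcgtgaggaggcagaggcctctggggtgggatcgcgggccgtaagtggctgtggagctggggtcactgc
FDPS: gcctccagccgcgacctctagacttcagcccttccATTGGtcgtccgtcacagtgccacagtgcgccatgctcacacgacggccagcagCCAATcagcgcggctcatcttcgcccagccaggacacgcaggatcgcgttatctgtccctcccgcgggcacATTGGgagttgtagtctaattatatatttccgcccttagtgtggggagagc
PMVK: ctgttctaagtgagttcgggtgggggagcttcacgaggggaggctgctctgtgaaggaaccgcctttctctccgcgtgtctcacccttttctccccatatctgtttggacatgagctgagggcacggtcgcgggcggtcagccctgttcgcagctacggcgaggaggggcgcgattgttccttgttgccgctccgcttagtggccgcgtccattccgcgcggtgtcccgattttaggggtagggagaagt

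The NF-Y box was found 2 times in the HMGCS1 window shown and 0 times in the window of its second start, 5 times in MVK, 3 times in MVD, 3 times in FDPS and 0 times in PMVK. Of all 35116 promoter windows of this length, 32.0% held the box at least once and 9.53% held it 2 or more times. The windows of IDI1 held 0, 3 and 2 boxes at its 3 starts, and those of GGPS1 held 0, 1 and 0. The sterol response element in the forms TCACNCCAC and CACCCCAC, searched on both strands, matched in none of the 12 windows, against 0.883% and 2.43% of all windows. The GC box GGGCGG, the letters bound by SP1, was present in 11 of the 12 windows, all but that of the first GGPS1 start, against 42.6% of all windows. These matches describe letters in the windows, and binding was not measured.

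Transcript levels of 5 enzymes, ACAT2, HMGCS1, MVK, MVD and FDPS, were highest with perifosine and lower with sorafenib and with the combination. PMVK had the same order of means with smaller differences, none of which passed, and GGPS1 did not share it. The values below are normalised log2 intensities for arrays A, B and C of a group, and a level can be set against the same probe in another group but not against another probe.

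ACAT2, the cytosolic thiolase that joins acetyl-CoA units to acetoacetyl-CoA, had levels of 11.88, 11.69 and 11.82 in the control and 12.58, 12.63 and 12.93 with perifosine. Its levels were 11.42, 10.89 and 11.23 with sorafenib and 11.59, 11.39 and 11.10 with the combination. Every perifosine array stood above every other array, and every sorafenib and combination array stood below every control array. The means were 12.71 ± 0.190 (SD, n = 3) with perifosine and 11.18 ± 0.267 (SD, n = 3) with sorafenib, a 2.89-fold difference (log2 1.53, SE 0.181, limma adjusted p = 0.00553). A second ACAT2 probe was above background on 0 of 12 arrays and was not tested.

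HMGCS1, the cytosolic HMG-CoA synthase that commits carbon to the pathway, had levels of 10.48, 9.96 and 9.89 in the control and 11.55, 11.59 and 11.19 with perifosine. Its levels were 10.03, 9.38 and 9.10 with sorafenib and 10.05, 9.56 and 8.98 with the combination. The perifosine arrays were again above all others, whereas the control, sorafenib and combination arrays overlapped. Within letters, sorafenib was below the control in all 3, from -0.78 to -0.45 (log2). With the letter as a replicate block the SE of that change was 0.166 (limma adjusted p = 0.0707, unadjusted p = 0.00516). Perifosine exceeded sorafenib 3.84-fold (log2 1.94, SE 0.298, limma adjusted p = 0.0114), the second largest positive difference among the 8092 genes.

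MVK, mevalonate kinase, had levels of 8.75, 8.36 and 8.39 in the control and 9.00, 9.22 and 8.95 with perifosine. Its levels were 8.48, 7.56 and 7.51 with sorafenib and 7.94, 7.49 and 7.62 with the combination. Sorafenib array A lay within the control range, while the other sorafenib arrays and the combination arrays lay below it. On combination array B this probe did not reach the detection threshold. Perifosine exceeded sorafenib 2.31-fold (log2 1.21, SE 0.247, limma adjusted p = 0.0445), the largest adjusted p of the 5 calls.

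PMVK, phosphomevalonate kinase, which acts next, had levels of 9.15, 9.68 and 9.73 in the control and 9.16, 9.63 and 10.15 with perifosine. Its levels were 8.65, 9.31 and 9.53 with sorafenib and 9.04, 9.13 and 9.91 with the combination. All 4 groups overlapped. In each of the 4 groups array A was the lowest and array C the highest. The difference between perifosine and sorafenib was 0.48 (log2, SE 0.320, limma adjusted p = 0.498), with a 95% interval from -0.22 to 1.18. Within letters it was above 0 in all 3, from 0.31 to 0.62, and with the letter as a replicate block its SE was 0.156 (limma adjusted p = 0.119, unadjusted p = 0.0125).

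MVD, the mevalonate diphosphate decarboxylase that makes isopentenyl diphosphate, had levels of 8.55, 8.13 and 8.42 in the control and 9.24, 8.71 and 9.21 with perifosine. Its levels were 7.52, 7.63 and 7.77 with sorafenib and 8.11, 7.72 and 7.22 with the combination. The groups without sorafenib lay above both groups with it, and perifosine lay above the control, with no overlap in either case. On combination array B this probe, too, did not reach the detection threshold. Perifosine exceeded sorafenib 2.66-fold (log2 1.41, SE 0.230, limma adjusted p = 0.0163).

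FDPS, farnesyl diphosphate synthase, the target of nitrogen-containing bisphosphonates, had levels of 9.13, 9.13 and 9.35 in the control and 9.79, 9.82 and 9.83 with perifosine. Its levels were 9.01, 8.44 and 8.27 with sorafenib and 8.14, 8.33 and 8.49 with the combination. The perifosine arrays were above the control arrays and the arrays of both sorafenib-containing groups were below them, although sorafenib array A came close to the control. Perifosine exceeded sorafenib 2.36-fold (log2 1.24, SE 0.188, limma adjusted p = 0.0114). Processed pseudogenes of FDPS exist in the human genome, and whether this probe also binds their transcripts was not tested.

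GGPS1, geranylgeranyl diphosphate synthase, which lengthens farnesyl diphosphate by 1 isoprenoid unit, had levels of 9.81, 9.61 and 9.10 in the control and 9.61, 9.79 and 9.44 with perifosine. Its levels were 9.71, 10.08 and 9.91 with sorafenib and 10.27, 10.14 and 9.73 with the combination. Its means were highest in the sorafenib-containing groups, but neighbouring groups overlapped. The difference between perifosine and sorafenib was -0.28 (log2, SE 0.211, limma adjusted p = 0.553), below 0 within each of the 3 letters.

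**Figure D1:**
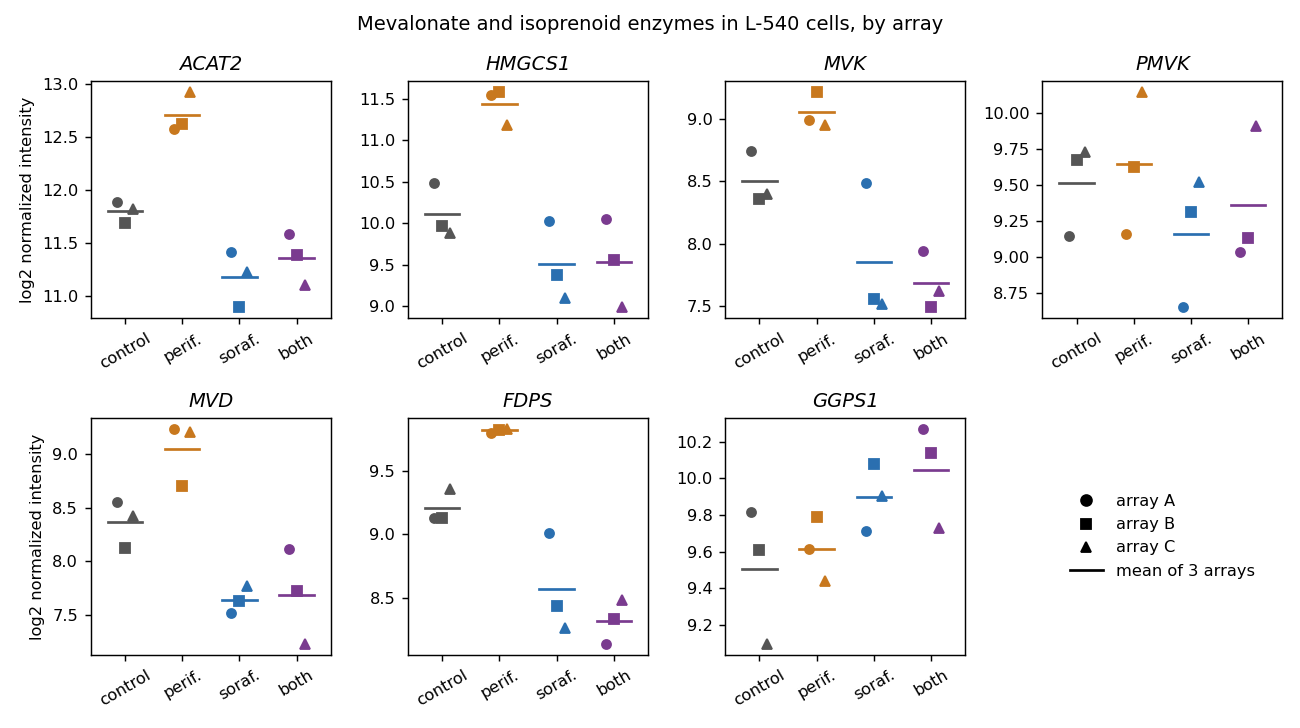
Normalised log2 intensity (y axis) of the 7 measured enzymes in control, perifosine, sorafenib and combination arrays, 3 points per group with the group mean. The perifosine arrays stand above all others for ACAT2, HMGCS1, MVK, MVD and FDPS (for HMGCS1 from 11.19 to 11.59, against at most 10.48 elsewhere). The groups overlap for PMVK and neighbouring groups overlap for GGPS1.

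The difference between the single drugs takes no control mean, although the control arrays entered the normalisation and the shared estimate of the spread. A total of 5 of the 7 members were higher with perifosine than with sorafenib at an adjusted p under 0.05, against 0.408% of all genes called higher and 0.976% called in either direction. With the letter as a replicate block, 5 members passed, against 4.55% of all genes in either direction. The same 5 did not overlap between the groups (11.7% of all genes were higher without overlap). They made up 15.2% of the 33 genes called higher. The median difference of the 7 members was 1.24 (log2), against 0.0013 for all genes. Within letters, 6 members were above 0 in all 3 letters, from 0.31 for PMVK to 2.21 for HMGCS1. The count fell to 2 without perifosine array B, to 2 without perifosine array C and to 1 without sorafenib array C, and it was 1 with median scaling and 0 when the 6 arrays of the comparison were fitted alone. It was 4, with MVK lost, without any 1 of the control arrays. ACAT2 passed in 21 of 23 alternatives and MVK in 9 of 22.

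The same 5 transcripts were lower when sorafenib was given with perifosine. In the combination against perifosine alone, 5 of 7 members fell at an adjusted p under 0.05, against 0.803% of all genes called lower and 2.39% called in either direction. HMGCS1 fell by 1.91 on the log2 scale (SE 0.298, limma adjusted p = 0.0110), the fourth lowest change among all genes. FDPS fell by 1.49 (SE 0.188, limma adjusted p = 0.00613), MVK by 1.37 (SE 0.247, limma adjusted p = 0.0207), MVD by 1.36 (SE 0.230, limma adjusted p = 0.0145) and ACAT2 by 1.35 (SE 0.181, limma adjusted p = 0.00660). As folds, perifosine alone was 3.77 times the combination for HMGCS1 and 2.82 times for FDPS. None of the 5 overlapped between the groups (9.58% of all genes were lower without overlap). PMVK differed by -0.28 (limma adjusted p = 0.673) and GGPS1 by 0.43 (limma adjusted p = 0.298). Without combination array B, 4 members passed and MVK did not (adjusted p = 0.0569). The count was 3 without perifosine array B and 3 without perifosine array C, and 0 with median scaling or with the 6 arrays fitted alone.

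**Figure D2:**
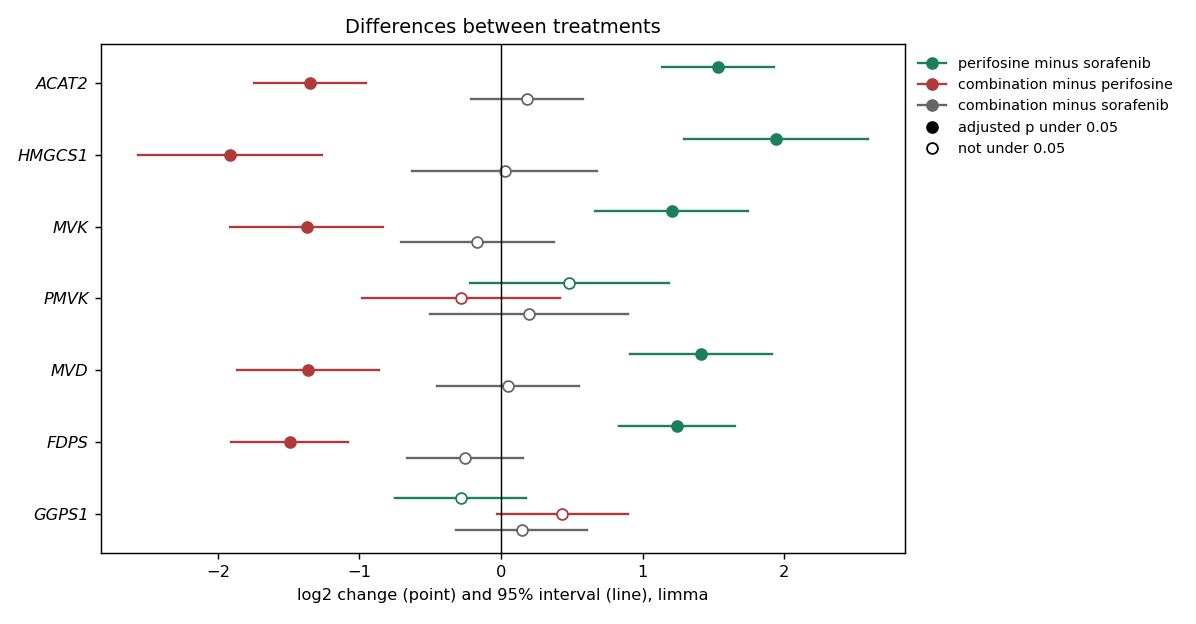
Log2 difference of each enzyme (point, with its 95% interval from limma) for perifosine minus sorafenib, combination minus perifosine and combination minus sorafenib; filled points have an adjusted p under 0.05. ACAT2, HMGCS1, MVK, MVD and FDPS lie between 1.21 and 1.94 in the first comparison and between -1.91 and -1.35 in the second, and the third has no filled point.

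Adding perifosine to sorafenib gave no call for any member. In the combination against sorafenib alone, 0 of 7 members passed in limma, as did 0% of all genes, with 164 genes and 0 members at an unadjusted p under 0.05. The difference was 0.18 for ACAT2 (log2, 95% interval -0.21 to 0.58) and 0.03 for HMGCS1 (95% interval -0.63 to 0.68). It was -0.17 for MVK (95% interval -0.71 to 0.37), 0.05 for MVD (95% interval -0.45 to 0.55) and -0.25 for FDPS (95% interval -0.66 to 0.16). It was 0.20 for PMVK (95% interval -0.50 to 0.90) and 0.15 for GGPS1 (95% interval -0.32 to 0.61). These intervals do not show that the groups were alike. Without combination array B the 7 differences ran from -0.26 for FDPS to 0.31 for PMVK, with none passing.

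Against untreated cells the changes were smaller, and these 3 comparisons share the control arrays. With perifosine, all 7 members had changes above 0 but 0 passed, as did 0% of all genes in limma (198 genes at an unadjusted p under 0.05, lowest adjusted p 0.194). The change was 1.33 for HMGCS1 (log2, SE 0.298, limma adjusted p = 0.829), the second largest of all genes, and 0.91 for ACAT2 (SE 0.181, limma adjusted p = 0.515), the ninth largest. MVD was at 0.69, FDPS at 0.61 and MVK at 0.56, while PMVK was at 0.13 and GGPS1 at 0.11. With the letter as a replicate block, 0 members and 0% of all genes passed. In that fit the SE was 0.166 for HMGCS1 (limma adjusted p = 0.158, unadjusted p = 1.95e-05) and 0.170 for ACAT2 (limma adjusted p = 0.581, unadjusted p = 0.000431). A total of 5 members had no perifosine array within the control range, against 4.18% of all genes that were higher without overlap, and 5 had an unadjusted p under 0.05. The median change of the members was 0.61, against 0.0042 for all genes.

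With sorafenib, 0 of 7 members passed, against 1.47% of all genes in either direction, and 0 passed with the letter as a replicate block, against 4.99%. Of the 7, 6 had changes below 0. The change was -0.73 for MVD (log2, SE 0.230, limma adjusted p = 0.130), -0.63 for FDPS (SE 0.188, limma adjusted p = 0.114) and -0.62 for ACAT2 (SE 0.181, limma adjusted p = 0.110). These 3 did not overlap with the control, as held for 11.8% of all genes that were lower. MVK was at -0.65, HMGCS1 at -0.61 and PMVK at -0.35, and GGPS1 was at 0.39 (limma adjusted p = 0.376). The median change of the members was -0.62, against 0.0021 for all genes. Of the members, 4 had an unadjusted p under 0.05 in limma, as did 1364 of all 8092 genes.

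With the combination, 1 member of 7 fell, against 1.1% of all genes called lower and 3.41% called in either direction. It was FDPS, which fell by 0.88 on the log2 scale (SE 0.188, limma adjusted p = 0.0293). That call was lost when any of the 6 control and combination arrays was left out (adjusted p from 0.0512 to 0.112; without combination array B it was 0.0592), and it passed in 14 of 23 alternatives. MVK was at -0.82 (SE 0.247, limma adjusted p = 0.0919), MVD at -0.68, HMGCS1 at -0.58 and ACAT2 at -0.44. ACAT2, MVK, MVD and FDPS did not overlap with the control, against 10.5% of all genes that were lower without overlap. PMVK was at -0.16 and GGPS1 at 0.54 (SE 0.211, limma adjusted p = 0.176).

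**Figure D3:**
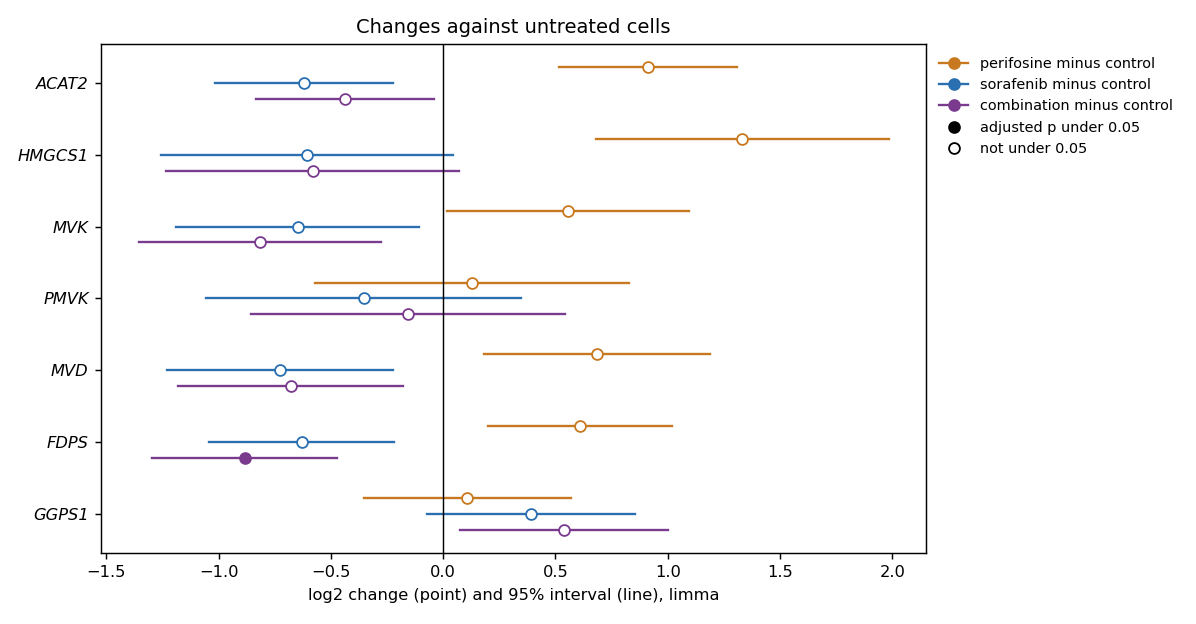
Log2 change against untreated cells (point, with its 95% interval from limma) for the 7 enzymes under perifosine, sorafenib and the combination; filled points have an adjusted p under 0.05. FDPS with the combination, at -0.88, is the one filled point; ACAT2, HMGCS1, MVK, MVD and FDPS have perifosine points from 0.56 to 1.33 and sorafenib points from -0.73 to -0.61.

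The interaction asks whether the combination departs from the added log2 changes of the single drugs, and it was below 0 for 5 members. It was -1.31 for HMGCS1 (SE 0.421, unadjusted p = 0.00944 in limma), -0.86 for FDPS (SE 0.266, unadjusted p = 0.00727 in limma) and -0.73 for ACAT2 (SE 0.256, unadjusted p = 0.0148 in limma). None passed after adjustment (adjusted p = 1), and 0% of all genes did, with 163 genes at an unadjusted p under 0.05. For MVK the value was -0.72, for MVD -0.64, for PMVK 0.07 and for GGPS1 0.04. Without combination array B it was -1.32 for HMGCS1, -0.87 for FDPS and -0.75 for ACAT2.

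FDPS and GGPS1 follow each other at the isoprenoid branch, and were compared within arrays. The FDPS value minus the GGPS1 value was 0.18, 0.03 and 0.39 on the perifosine arrays, -0.70, -1.64 and -1.64 on the sorafenib arrays and -2.13, -1.80 and -1.24 on the combination arrays. On the control arrays it was -0.68, -0.48 and 0.26. Its absolute size depends on both probes, so that differences between groups alone are read. Perifosine was 1.52 above sorafenib and the combination was 1.92 below perifosine, with no overlap in either case. Without combination array B the latter difference was -1.89. Perifosine against sorafenib and the combination against perifosine each gave p = 0.1 in a two-sided exact permutation test. That is the smallest value that 3 arrays against 3 can give. Sorafenib (-1.02) and the combination (-1.42) against the control also gave p = 0.1 in the exact permutation test. Perifosine against the control (0.50) gave p = 0.3 in the exact permutation test, and the combination against sorafenib (-0.40) gave p = 0.4. Of the members, FDPS had the lowest and GGPS1 the highest change in the combination against the control (-0.88 and 0.54).

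The genes downstream on the sterol branch, which lead from squalene to cholesterol, were tested for 9 of 12 listed. Like the members and the other lists, they were chosen with earlier results of these data known. Their counts beside the share of all genes are therefore no independent support. At an adjusted p under 0.05, 4 of the 9 were higher with perifosine than with sorafenib, against 0.408% of all genes. All 9 differences were above 0, with a median of 0.95. These were DHCR7, a late reductase of cholesterol synthesis (log2 1.75, SE 0.189, limma adjusted p = 0.00420), LSS, lanosterol synthase (1.29, SE 0.174, limma adjusted p = 0.00666), the isomerase EBP (1.06, SE 0.189, limma adjusted p = 0.0212) and the dehydrogenase NSDHL (0.95, SE 0.165, limma adjusted p = 0.0202). The methyl oxidase MSMO1 had the largest difference of the list, 1.88 (SE 0.417, limma adjusted p = 0.0561), and passed with the letter as a replicate block (adjusted p = 0.0117), which raised the count to 5. The same 4 genes fell in the combination against perifosine, DHCR7 by 1.41 (limma adjusted p = 0.00660) and LSS by 1.15 (limma adjusted p = 0.0108). Without combination array B, EBP no longer passed there (adjusted p = 0.0530), and DHCR7 (0.0192), NSDHL (0.0230) and LSS (0.0310) did. Together, members and sterol branch genes made up 9 of the 33 genes called higher with perifosine than with sorafenib and 9 of the 65 called lower in the combination than with perifosine. Against the control, DHCR7 fell with sorafenib (log2 -0.87, limma adjusted p = 0.0479), as 0.519% of all genes did, and no other gene of the list passed.

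Of 18 genes of sterol control and uptake, 9 were tested, and 2 differed between the single drugs in opposite directions. INSIG1, which holds the SREBP escort protein in the endoplasmic reticulum and is itself an SREBP target, was higher with perifosine than with sorafenib (log2 1.71, SE 0.214, limma adjusted p = 0.00553). MYLIP, a ubiquitin ligase that lowers lipoprotein receptors and is known as a target of the sterol-sensing LXR factors, was lower (-1.64, SE 0.151, limma adjusted p = 0.00163), as 0.568% of all genes were. INSIG1 also fell against the control with sorafenib (-1.22, limma adjusted p = 0.0204) and with the combination (-0.97, limma adjusted p = 0.0331; 0.0710 without combination array B). INSIG2, at 0.64 between the drugs (limma adjusted p = 0.244), was at -1.01 with sorafenib against the control (limma adjusted p = 0.0753, and 0.0174 with the replicate block), and MYLIP was at 0.65 there (limma adjusted p = 0.0538, and 0.0395 with the replicate block). The median of the list was 0.13 between the drugs.

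Of 21 genes that use isoprenoids (prenyltransferases, prenyl protein processing, dolichol and ubiquinone synthesis), 17 were tested. None (0) passed in limma in any of the 7 comparisons, where the share of all genes that passed was at most 3.41%, with a median of 0.04 between perifosine and sorafenib. The largest differences were 0.32 for ICMT, the methyltransferase of prenylated proteins (SE 0.143, limma adjusted p = 0.296, unadjusted p = 0.0462), 0.27 for FNTB, the farnesyltransferase beta subunit (SE 0.157, limma adjusted p = 0.426), and 0.27 for COQ2, a ubiquinone synthesis enzyme (SE 0.206, limma adjusted p = 0.562). ICMT was the one gene of the list with an unadjusted p under 0.05 in that comparison, where 1310 of all 8092 genes had one. Of 11 acetyl-CoA and ketone neighbours, 6 were tested and 0 passed in limma between the drugs. Against the same 1310 of all 8092 genes, 3 of the 6 had an unadjusted p under 0.05. These were SLC25A1, the mitochondrial citrate carrier, at 0.72 (SE 0.162, limma adjusted p = 0.0585, and 0.0210 with the replicate block), ACLY, which splits citrate to acetyl-CoA, at 0.62 (SE 0.251, limma adjusted p = 0.244), and ACSS2, the cytosolic acetyl-CoA synthetase, at 0.43 (SE 0.145, limma adjusted p = 0.170). The median of these 6 genes was 0.23.

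**Figure D4:**
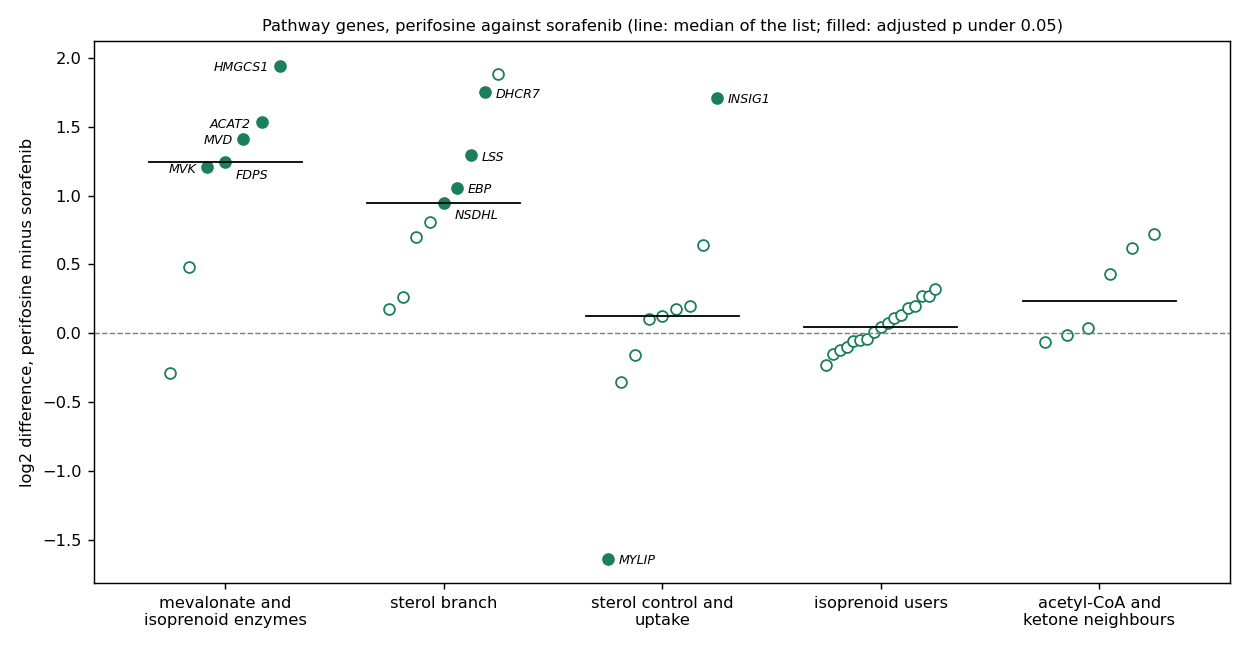
Log2 difference between perifosine and sorafenib (y axis) for each tested gene of the 5 gene lists (x axis); filled points have an adjusted p under 0.05 and the line is the median of the list. The medians are 1.24 for the mevalonate and isoprenoid enzymes, 0.95 for the sterol branch, 0.13 for sterol control and uptake, 0.04 for isoprenoid users and 0.23 for the acetyl-CoA and ketone neighbours.

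The members' mean profile, each gene centred on its own mean over the 12 arrays, ran from 0.63 to 0.74 on the perifosine arrays and from 0.0021 to 0.18 on the control arrays. It ran from -0.46 to -0.24 on the sorafenib arrays and from -0.50 to -0.20 on the combination arrays. Each member is itself part of this mean. Of the members, ACAT2 was nearest to it, with a root-mean-square distance of 0.197 (log2, 12 arrays), followed by MVK (0.248), MVD (0.258) and FDPS (0.263). A flat profile had a distance of 0.445. HMGCS1 lay at 0.442, with a larger range between its groups, and PMVK at 0.509 and GGPS1 at 0.646 lay farther than a flat profile. The 8 genes outside the members with the smallest distances were SCD, NSDHL, EBP, OSM, PNP, RAB11FIP1, LRP8 and SLC25A1, from 0.142 to 0.216. SCD, the stearoyl-CoA desaturase of fatty acid synthesis, was nearest of these, with a difference of 1.04 (log2) between perifosine and sorafenib. LRP8, a receptor of the LDL receptor family, had a difference of 0.78, and OSM, the cytokine oncostatin M, 0.80. These differences describe genes chosen for the likeness of their profiles over the same arrays.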

How the data were processed

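RNA of 12 samples of L-540 cells, 3 per group, was amplified to biotinylated cRNA for Illumina arrays, per the labels' protocols. Per the file headers, the deposited table gives each probe's mean bead intensity (linear) and its detection p-value. BeadStudio, with no version, is named in the submitters' processing notes. No deposited intensity is near 0 (lowest 230.9) and array medians differ, so background correction and scaling were still to be done. The authors also deposited normalised intensities with near-equal medians (492.3 to 492.9), by a method not given in the sources used here, and these served as an alternative.

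Of 48803 probes, 28098 have 1 gene symbol in the annotation. Values were background-corrected with neqc (limma 3.58.1, R 4.3.3, offset 16), which infers the negative controls from the detection p-values, then quantile-normalised and put on the log2 scale. A probe was kept where its detection p-value was below 0.01 on 3 or more arrays (11904 probes), and each gene was its brightest probe (8092 genes). All arrays entered 1 limma model with a mean per group, and p-values were adjusted by Benjamini-Hochberg over all genes within each of 7 comparisons (threshold 0.05). The fit was tried on simulated arrays with spread drawn independently for each array, for sorafenib minus control. It called 56% of the genes changed by 1 (log2), 94% of those changed by 2 and 14 unchanged genes. The number of arrays limits the precision. Every enzyme was named; genes of the 4 companion lists were named where they passed against the control or between the single drugs, plus the 3 largest differences of a list between the single drugs. Members and lists were chosen with earlier results of these data known.

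Residuals about the group means were correlated between arrays of the same letter to see whether the letter pairs them. The correlations were 0.265 to 0.355 between control and perifosine, 0.186 to 0.334 between control and sorafenib and 0.234 to 0.385 between the single drugs, all above 0.1, and the letter was taken to pair these arrays. With the combination they ran from -0.161 to 0.319. They were 0.231 to 0.319 for letter A, -0.161 to -0.0985 for letter B and -0.0985 to 0.169 for letter C. The letter was therefore not taken to pair the combination arrays, although those of letter A were all above 0.1. The alternatives were other scaling, background correction, offset, filter, probe rule, array weights, fitted arrays, the letter as a replicate block, leaving out each array, and a fit over all kept probes, which was added after seeing the data.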

Additional observations from a re-analysis of the deposited data

How the results depend on the processing

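In the comparison of perifosine with sorafenib and of the combination with perifosine, each of the 7 members kept its direction in all 23 alternatives that gave it a value (22 for MVK and MVD, which the filter on detection on all 12 arrays removed). Of 113 values of the 5 called members in each, 28 and 16 no longer passed. The member count between the single drugs, 5, was 1 with median scaling, 3 of 5 members left by the filter on all 12 arrays, and 0 when the 6 arrays of the comparison were fitted alone; leaving out single arrays gave 1 to 5. The count for the combination against perifosine, 5, was 0, 3 and 0 under these settings and 3 to 5 with single arrays left out. The count of 1 for the combination against control was 0 with median scaling, 0 without a filter on dim probes and 0 with the 6 arrays alone. It was 2 (FDPS and MVK) with the letter as a replicate block, although the letter was not taken to pair the combination arrays. Single arrays left out gave 0 to 2. For sorafenib against control the count of 0 was 1 without background correction (ACAT2), 1 on the authors' normalised table (ACAT2) and 1 with array weights (FDPS). With the replicate block the other member counts were unchanged (5 between the single drugs). Without background correction and on the authors' table, changes shrank: the median between the single drugs was 0.60 and 0.59 in place of 1.24, and that of the combination against perifosine -0.58 on both in place of -1.36. Median scaling moved the median of all genes the most, by -0.10 in the combination minus sorafenib.

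Values near 0 changed sign. Under median scaling and array weights, the combination minus sorafenib was -0.079 and -0.0046 for HMGCS1 and -0.057 and -0.046 for MVD, and the GGPS1 interaction was -0.0058 and -0.11. With single arrays left out, perifosine minus control ran from -0.10 to 0.26 for GGPS1 and from -0.12 to 0.37 for PMVK, and the combination minus control from -0.43 to 0.0037 for PMVK. The combination minus sorafenib ran from -0.23 to 0.30 for HMGCS1, -0.16 to 0.28 for MVD, -0.34 to 0.15 for MVK and -0.078 to 0.38 for PMVK. The interaction ran from -0.12 to 0.24 for GGPS1 and from -0.20 to 0.32 for PMVK. The cause of these changes of sign was not tested. The slide as a block was not run, since the headers name no slide. Signal over background limits MVK and MVD, whose raw intensities ran from 602 to 1001 and from 548 to 1083.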

Other observations

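Within groups, the arrays of a letter differed in the same members. PMVK was farther below its group mean than any other member on 5 of the arrays, the 4 arrays of letter A among them, and highest of the members relative to its group mean on the control, perifosine, sorafenib and combination arrays of letter C. HMGCS1 was the lowest of the members relative to its group mean on the perifosine, sorafenib and combination arrays of letter C. On control array A and combination array A, HMGCS1 was the highest, by 0.37 and 0.52 (log2). What the letters stand for is not stated in the labels.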
